A study of Mus musculus with 6 samples.

Results

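Calcium enters heart muscle cells through voltage-gated channels of the surface membrane and leaves them through the sodium-calcium exchanger and the plasma membrane calcium pumps. Messenger RNA of these proteins was read from the hearts of 6 mice for a set of 10 genes out of 44792 gene symbols in the count table. The set was chosen by name: the channel pore genes Cacna1c, Cacna1d, Cacna1g and Cacna1h, the auxiliary channel subunits Cacnb2 and Cacna2d1, the exchanger Slc8a1, the pumps Atp2b1 and Atp2b4, and Itpr2. Itpr2 encodes the type 2 inositol trisphosphate (IP3) receptor, which releases calcium from internal stores and is therefore not a surface protein. The other 9 fit the name of surface calcium channels, exchanger and pumps.

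The mutant hearts, 3 in number, carried the cTnI R193H mutation, a histidine for arginine substitution in cardiac troponin I, the inhibitory subunit of the thin filament. They were set against 3 hearts of wild type mice. All mice were C57BL/6, 3 months old and untreated, and each heart gave 1 library. The labels name neither the way the mutant allele was made nor its zygosity. Hearts of a genotype are biological repeats by the submitters' design text, and the question was which genes differ between the genotypes.

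In each beat of the heart, the L-type channel opens on depolarisation and admits the calcium that triggers further release from the sarcoplasmic reticulum. Its pore, the alpha1 subunit, comes from Cacna1c in working heart muscle and also from Cacna1d in atria and pacemaker tissue. The beta and alpha2delta subunits bring the pore to the surface and set its gating. T-type channels, from Cacna1g and Cacna1h, open at more negative voltages and are known from pacemaker cells and the fetal heart. The exchanger NCX1, encoded by Slc8a1, carries calcium out against entering sodium and is the main exit route in heart muscle, and the pumps remove a smaller part at the expense of ATP.

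The start regions of 3 abundant members show how differently these genes begin. Each run holds 300 bases, 250 before and 50 after a transcription start, 5′ to 3′ on the strand of the gene, from RefSeq on GRCm38.p6. Capitals mark the GC box GGGCGG on either strand, a letter match that is a description and not a shown binding site. Overlapping matches run together.
Cacna1c, first of 3 starts (chr6:119196360-119196659, minus strand): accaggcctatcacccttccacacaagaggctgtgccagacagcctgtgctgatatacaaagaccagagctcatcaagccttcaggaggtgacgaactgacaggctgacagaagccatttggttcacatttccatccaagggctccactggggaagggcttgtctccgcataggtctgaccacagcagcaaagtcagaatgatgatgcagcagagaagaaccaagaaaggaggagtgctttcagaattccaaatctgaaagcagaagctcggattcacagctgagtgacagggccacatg
Cacna1c, second of 3 starts (chr6:119108446-119108745, minus strand): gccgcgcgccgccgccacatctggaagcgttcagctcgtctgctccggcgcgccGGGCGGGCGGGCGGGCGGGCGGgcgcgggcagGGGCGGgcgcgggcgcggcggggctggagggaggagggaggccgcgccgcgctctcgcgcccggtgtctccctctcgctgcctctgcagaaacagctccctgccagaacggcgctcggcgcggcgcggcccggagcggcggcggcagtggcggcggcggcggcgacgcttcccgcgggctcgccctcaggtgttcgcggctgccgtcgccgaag
Cacna2d1 (chr5:15934441-15934740, plus strand): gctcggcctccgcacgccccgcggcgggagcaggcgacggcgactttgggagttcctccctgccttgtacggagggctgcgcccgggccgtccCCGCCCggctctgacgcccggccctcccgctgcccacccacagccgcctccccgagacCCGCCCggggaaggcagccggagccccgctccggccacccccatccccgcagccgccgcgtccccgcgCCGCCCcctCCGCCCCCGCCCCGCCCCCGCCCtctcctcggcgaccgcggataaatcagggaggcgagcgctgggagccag
Slc8a1 (chr17:81738338-81738637, minus strand): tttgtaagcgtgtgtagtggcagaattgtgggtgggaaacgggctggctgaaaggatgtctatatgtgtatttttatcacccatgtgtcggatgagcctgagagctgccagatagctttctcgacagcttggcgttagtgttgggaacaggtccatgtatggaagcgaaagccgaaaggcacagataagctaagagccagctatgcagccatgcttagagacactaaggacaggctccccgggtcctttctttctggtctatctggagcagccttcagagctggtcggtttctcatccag
The first Cacna1c start and the Slc8a1 start had no GC box and were 51.3% and 50.7% G or C. The second Cacna1c start had 6 matches at 81.3% G or C, and the Cacna2d1 start had 7 at 80.0%. Of 32817 promoters of the same length, 35.6% held the GC box, and the median was 52.7% G or C. The read counts sum over the starts of a gene, so the starts of Cacna1c could not be separated. RefSeq start regions were matched for 8 of the 10 members.

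Libraries held 14736067 to 21852210 counts. Levels are in CPM, a gene's count relative to the library total, with totals scaled by trimmed means of M values (TMM), which assumes that most genes do not differ between hearts. Of 14370 genes that passed the filter on low counts, 1 passed an adjusted p of 0.05 in the quasi-likelihood test of edgeR, which is 0.00696% of them. DESeq2 called 40 genes (0.275% of 14536), and edgeR with no filter on low counts called 38 (0.16% of 23755). The atrial gene Myl7, named after its values were seen, differed widely between hearts of the same genotype. Myl7 was at 8.54, 62.1 and 2.89 CPM in R193H replicates 1, 2 and 3, against 74.1, 54.0 and 0.401 CPM in wild type replicates 1, 2 and 3. Values in replicate order below follow the same numbering. The label of heart tissue held, with ventricular markers such as Mb and Myh6 high in every heart and none of the 8 listed at 0.

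No member changed by the adjusted p: 0 of the 9 members tested passed in edgeR, and 0 in DESeq2 or in edgeR without a filter. At an unadjusted p under 0.05, 2 members were lower in R193H hearts, Cacna1c and Cacna2d1, where 2.51% of all genes tested were lower and 3.22% higher. The same 2 were the only members whose groups did not overlap, both lower in R193H hearts, as were 5.8% of all genes tested. Each of the 9 averaged lower in R193H than in wild type hearts (median log2 fold change -0.21), as did 50.1% of all genes tested, whose median was -0.00036. That count depends on the scaling. On plain library totals the median over the genes tested was 0.13, and 6 of the 9 were lower and 3 higher. The highest of the 9 was then Atp2b4 at 0.11, which lay below that median. Cacnb2 did not pass the filter.

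**Figure D1:**
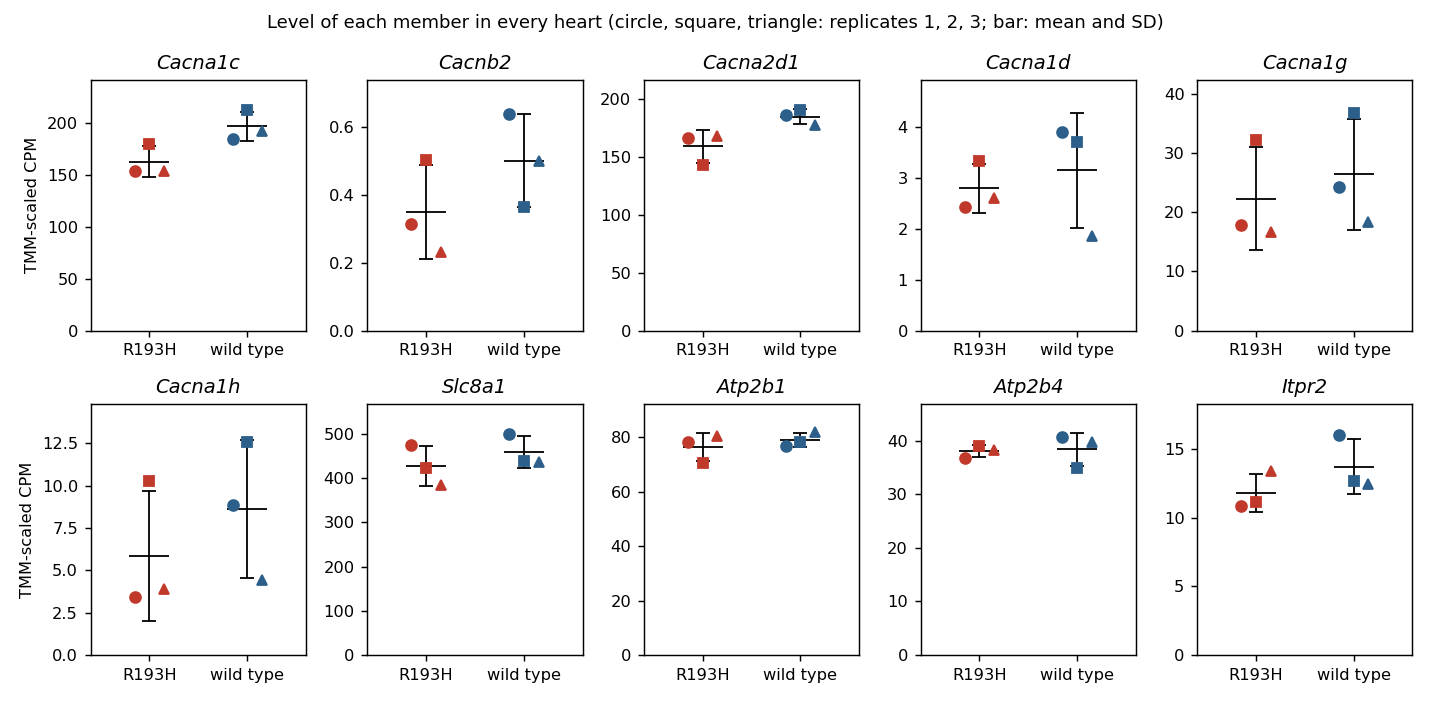
Level of each of the 10 members (TMM-scaled CPM, axis from 0) in the 3 R193H hearts (left, red) and the 3 wild type hearts (right, blue), with the mean and SD of each group. For Cacna1c and Cacna2d1 every R193H heart lies below every wild type heart, and for the other 8 the groups overlap.

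Cacna1c (chromosome 6, 118587240 to 119196418, minus strand; all gene positions are on GRCm38 from GENCODE) encodes Cav1.2, the pore of the L-type channel. It measured 154, 179.8 and 153.7 CPM in R193H replicates 1, 2 and 3, against 184.7, 212.4 and 192.4 CPM in wild type replicates 1, 2 and 3. The highest R193H heart lay just below the lowest wild type heart. Means were 162.5 ± 14.97 CPM in R193H hearts and 196.5 ± 14.3 CPM in wild type hearts (SD, n = 3 each). The log2 fold change was -0.27 (SE 0.094, 95% interval -0.48 to -0.064), with an adjusted p of 0.736 in edgeR and 0.525 in DESeq2. It was -0.14 on library totals, -0.35 without R193H replicate 2 and -0.22 without wild type replicate 2.

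Cacna2d1 (chromosome 5, 15934691 to 16374511, plus strand) encodes the alpha2delta-1 subunit, which lies on the outer face of the channel and raises the number of channels at the surface. It measured 165.6, 142.7 and 168.1 CPM in R193H hearts, against 185.7, 189.8 and 177.3 CPM in wild type hearts. R193H replicate 2 was the lowest heart here, although for Cacna1c it was the highest of its group. Means were 158.8 ± 14.0 CPM in R193H hearts and 184.2 ± 6.38 CPM in wild type hearts (SD, n = 3 each), a log2 fold change of -0.21 (SE 0.088, 95% interval -0.41 to -0.018, edgeR adjusted p = 0.816). It was -0.091 on library totals and -0.14 without R193H replicate 2. The count ratio of Cacna2d1 to Cacna1c within a heart was 1.08, 0.794 and 1.09 in R193H hearts, against 1.01, 0.893 and 0.921 in wild type hearts, so the groups overlapped. Such a ratio does not depend on library scaling, and its log2 difference was 0.058 (exact permutation test, two-sided, p = 0.8, where 0.1 is the smallest p that 3 hearts against 3 allow).

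Under TMM scaling, summed markers of ventricular cardiomyocytes, of macrophages and of smooth muscle and pericytes also stood apart between the genotypes. Of 8 ventricular cardiomyocyte markers, 7 averaged lower in R193H than in wild type hearts (median log2 fold change -0.11). Their summed level was 44730 to 49220 CPM in R193H hearts and 50070 to 51650 CPM in wild type hearts. The direction of these markers depends on the scaling. On library totals Myl2 (log2 fold change -0.011), Myh6 (-0.14), Tnnt2 (-0.088) and Ckm (-0.036) were lower in R193H hearts. Actc1 (0.21), Myl3 (0.040), Mb (0.099) and Tnnc1 (0.067) were then higher. All 10 macrophage markers averaged higher (median 0.54), 7 of them at an unadjusted p under 0.05 in edgeR and 0 past its adjusted threshold. DESeq2 called 2 of them, C1qa (named for this, with its value seen; adjusted p = 0.0112) and C1qb (adjusted p = 0.0039), and edgeR without a filter gave these 2 an adjusted p of 0.0105 and 0.0492. The list had a summed level of 392.7 to 562.4 CPM in R193H hearts and 324.1 to 382.3 CPM in wild type hearts. The smooth muscle and pericyte markers summed to 2950 to 3057 CPM in R193H hearts and 3062 to 3269 CPM in wild type hearts. Yet 8 of these 12 averaged higher in R193H hearts and 4 lower (median 0.031). Des, the most abundant of them, averaged 1602 CPM in R193H hearts and 1769 CPM in wild type hearts, with groups that overlapped. No gene of these lists was at 0 in all hearts. Of the fibroblast markers 9 of 10 averaged higher, and of the endothelial markers 9 of 10, with sums that overlapped between the genotypes. All 6 red cell markers tested averaged lower in the mutants (median -1.94). Sums over all 7 listed were 496.0, 650.4 and 583.1 CPM in R193H hearts, against 3137, 274.3 and 3012 CPM in wild type hearts, so wild type replicates 1 and 3 stood far above the other 4 hearts and the genotypes overlapped. The part of these cell types in the lower Cacna1c and Cacna2d1 values was not tested. In whole tissue, fewer cells of a type and less RNA per cell cannot be told apart.

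Cacnb2 (chromosome 2, 14603088 to 14987908, plus strand) encodes the beta2 subunit, the beta subunit best known from heart muscle, and was barely detected. It had 7, 11 and 5 counts in R193H hearts, against 9, 6 and 10 counts in wild type hearts, which is 0.315, 0.503 and 0.233 CPM in R193H hearts and 0.639, 0.364 and 0.501 CPM in wild type hearts. All 6 hearts were above what 0 counts would allow (an upper limit of 3 counts, 0.135 to 0.213 CPM, for counting error only). Fitted without a filter on low counts, its log2 fold change was -0.50 (SE 0.62, edgeR adjusted p = 0.874), a difference not detectable at this depth. Per kilobase of its longest coding transcript, Cacnb2 averaged 0.0888 CPM in R193H hearts and 0.127 CPM in wild type hearts. On that scale the other beta subunit genes stood higher: Cacnb1 at 1.80 CPM per kb in R193H hearts and 2.20 in wild type hearts, and Cacnb3 at 1.61 CPM per kb in R193H hearts and 1.55 in wild type hearts. Cacnb4 was at 0.337 CPM per kb in R193H hearts and 0.327 in wild type hearts. Exons of 3 genes on the opposite strand overlap Cacnb2. The row of Gm10848 held 0 counts in every heart, and Gm10849 and Gm13269 have no row in the count table. The sources used here do not say how reads were assigned to genes, and the part of that step in the low Cacnb2 counts was not tested.

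The exchanger and the pumps differed less. Slc8a1 (chromosome 17, 81373105 to 81738377, minus strand) measured 476.2, 423.4 and 385.6 CPM in R193H hearts, against 501.2, 438.4 and 437.5 CPM in wild type hearts. R193H replicate 1 lay above 2 of the wild type hearts. Means were 428.4 ± 45.5 CPM in R193H hearts and 459.0 ± 36.5 CPM in wild type hearts (SD, n = 3 each). The log2 fold change was -0.099 (SE 0.10, 95% interval -0.33 to 0.13, edgeR adjusted p = 0.911). On library totals its sign turned, to 0.028. Leaving out R193H replicate 3 gave -0.021, leaving out R193H replicate 1 gave -0.18, and leaving out wild type replicate 1 gave -0.033.

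Atp2b1 (chromosome 10, 98914406 to 99026143, plus strand) encodes the pump PMCA1, which most cells carry. It measured 78.3, 70.6 and 80.5 CPM in R193H hearts, against 76.8, 78.4 and 81.8 CPM in wild type hearts, and the groups overlapped. Its log2 fold change was -0.047 (SE 0.080, 95% interval -0.23 to 0.13, edgeR adjusted p = 0.950). Atp2b4 (chromosome 1, 133699457 to 133801041, minus strand) encodes PMCA4, a pump with known signalling partners in heart muscle. It measured 36.8, 39.1 and 38.3 CPM in R193H hearts, against 40.7, 34.9 and 39.7 CPM in wild type hearts, with the R193H values inside the wild type range. Its log2 fold change was -0.014 (SE 0.086, 95% interval -0.21 to 0.18, edgeR adjusted p = 0.990). On library totals both signs turned, to 0.077 for Atp2b1 and 0.11 for Atp2b4.

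Itpr2 (chromosome 6, 146108299 to 146502223, minus strand) is the IP3 receptor best known from heart muscle cells. It measured 10.9, 11.2 and 13.4 CPM in R193H hearts, against 16.0, 12.7 and 12.5 CPM in wild type hearts. R193H replicate 3 lay above wild type replicates 2 and 3, so the groups overlapped. The log2 fold change was -0.21 (SE 0.14, 95% interval -0.53 to 0.0996, edgeR adjusted p = 0.900), and -0.092 without wild type replicate 1. Per kilobase, Itpr2 averaged 1.01 CPM in R193H hearts and 1.18 in wild type hearts, below Itpr1, another IP3 receptor, at 3.93 CPM per kb in R193H hearts and 4.06 in wild type hearts.

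**Figure D2:**
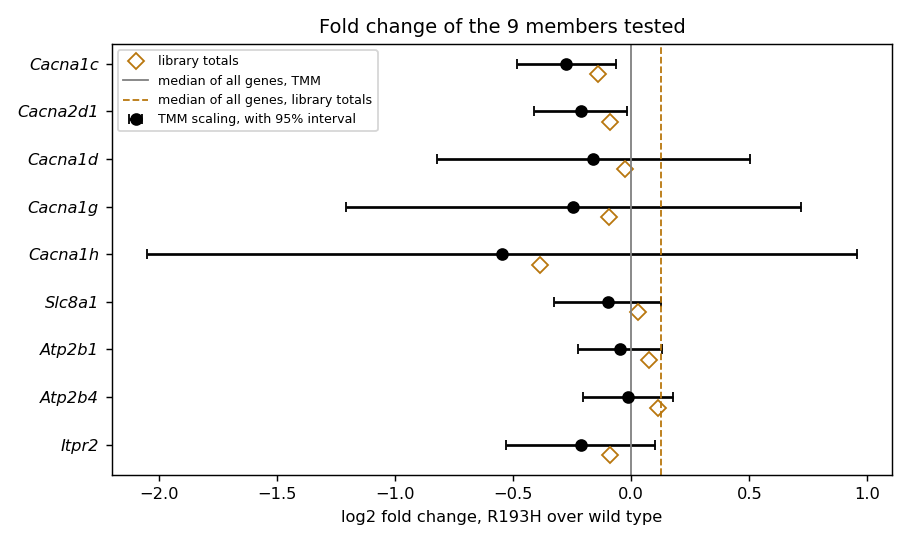
Log2 fold change, R193H over wild type, of the 9 members tested, with 95% intervals under TMM scaling (black) and the value on library totals (open diamonds). Vertical lines mark the median of all genes, -0.00036 under TMM and 0.13 on library totals. Only the TMM intervals of Cacna1c and Cacna2d1 lie below 0, and no member passed the adjusted threshold.

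For the other 3 pore genes the spread within a genotype was wider than the difference between the genotype means. Cacna1h (chromosome 17, 25374285 to 25433783, minus strand) encodes the T-type pore Cav3.2. It measured 3.42, 10.3 and 3.87 CPM in R193H hearts, against 8.87, 12.6 and 4.41 CPM in wild type hearts. Replicate 2 was the highest heart of each genotype. The log2 fold change was -0.55 (SE 0.59, 95% interval -2.05 to 0.96, edgeR adjusted p = 0.919), and it moved to -1.23 without R193H replicate 2 and to -0.16 without wild type replicate 2.

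Cacna1g (chromosome 11, 94408391 to 94474198, minus strand) encodes Cav3.1, the T-type pore known from the sinoatrial and atrioventricular nodes. It measured 17.8, 32.3 and 16.7 CPM in R193H hearts, against 24.3, 36.7 and 18.3 CPM in wild type hearts. Again replicate 2 was the highest heart in each genotype. Its log2 fold change was -0.24 (SE 0.38, 95% interval -1.21 to 0.72, edgeR adjusted p = 0.948), at -0.61 without R193H replicate 2 and 0.068 without wild type replicate 2. Cacna1d (chromosome 14, 30039939 to 30491455, minus strand) encodes Cav1.3, the L-type pore that opens at lower voltages. It measured 2.43, 3.34 and 2.61 CPM in R193H hearts, against 3.90, 3.70 and 1.85 CPM in wild type hearts. The wild type hearts lay both above and below every R193H heart. Its log2 fold change was -0.16 (SE 0.30, 95% interval -0.82 to 0.50, edgeR adjusted p = 0.952), at -0.44 without wild type replicate 3 and 0.018 without wild type replicate 1.

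All 3 genes were highest in the same 3 hearts, R193H replicate 2 and wild type replicates 1 and 2. These hearts were picked from the values of these genes, and the share of all genes with the same 3 highest hearts was not computed. Of the 21 other voltage-gated channel genes, 3 had the same 3 highest hearts and 18 did not. Of the 9 atrial markers, 4 were also highest in those 3 hearts (Myl7, Sln, Bmp10 and Dkk3, singled out after their values were seen) and 5 were not (Nppa, Myl4, Myh7b, Nr2f2 and Upk3b). Nppa, the most abundant gene of the list, measured 119.8, 151.1 and 179.7 CPM in R193H hearts, against 510.0, 197.8 and 79.99 CPM in wild type hearts. Sln, the sarcolipin of atrial muscle, was at 3.51, 27.0 and 1.96 CPM in R193H hearts, against 40.9, 25.4 and 0.1002 CPM in wild type hearts. In the whole atrial list, 6 of the 8 genes tested averaged lower in the mutants. The summed level of all 9 was 177.2, 357.3 and 229.5 CPM in R193H hearts, against 757.8, 376.7 and 122.0 CPM in wild type hearts. Bmp10, an atrial ligand also named after its values were seen, was at 0 in R193H replicate 1 and in wild type replicate 3. Of the 10 pacemaker and conduction markers, 5 of the 8 tested averaged lower in the mutants, with a summed level of 89.97 to 113.9 CPM in R193H hearts and 88.3 to 109.0 CPM in wild type hearts. Named likewise, Isl1 was at 0 in all but R193H replicate 2, and 3 of the 10 were highest in those 3 hearts (Hcn4, Vsnl1 and Cpne5). Hcn4, the pacemaker channel gene, was 1 of 6 in the list that were highest in replicate 2 of each genotype, at 6.91 CPM in R193H and 7.70 CPM in wild type. Of the 6 adipocyte markers, all 4 tested averaged lower in the mutants, and 3 of the 6 were highest in the 3 hearts named above while 3 were not. The summed level of all 6 was likewise highest in replicate 2, at 27.0 CPM in R193H and 30.4 CPM in wild type, against 3.60 to 7.17 CPM in the other R193H hearts and 5.01 to 7.73 CPM in the other wild type hearts. Of the 10 fibroblast markers, 6 were highest in replicate 2 of each genotype, and 1 (Gsn) was highest in the 3 hearts named above. Their summed level was 3225, 4943 and 3271 CPM in R193H hearts, against 3322, 4176 and 3419 CPM in wild type hearts. The part of atrial, conduction or fat tissue or of fibroblasts in the pore gene values was not tested.

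**Figure D3:**
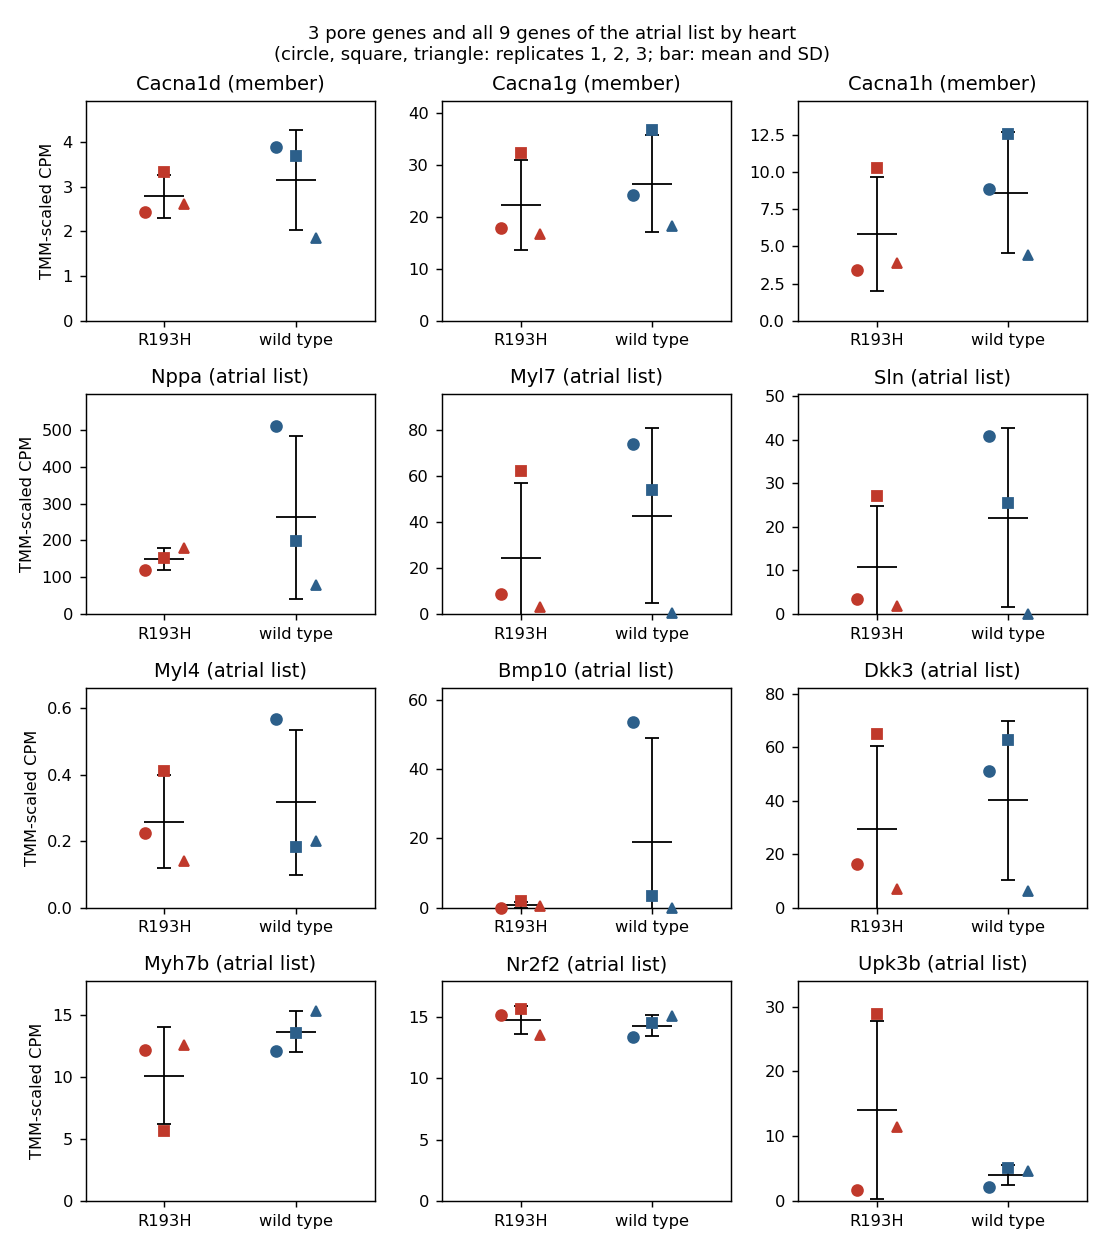
The pore genes Cacna1d, Cacna1g and Cacna1h (top row) and all 9 genes of the atrial list (lower rows) in every heart (TMM-scaled CPM, axes from 0, R193H left and wild type right, bars for mean and SD, cut at 0). The 3 highest hearts are R193H replicate 2 (red square) and wild type replicates 1 and 2 (blue circle and square) for the 3 pore genes and for Myl7, Sln, Bmp10 and Dkk3, but not for the other 5 atrial genes.

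Levels of different genes were compared per kilobase of the longest coding transcript. Slc8a1 stood first with 23.2 ± 2.47 CPM per kb in R193H hearts and 24.9 ± 1.98 in wild type hearts (SD, n = 3 each). Cacna2d1 followed with 21.4 ± 1.88 CPM per kb in R193H hearts and 24.8 ± 0.858 in wild type hearts, and the hearts of these first 2 genes overlapped. Cacna1c came next at 12.3 ± 1.14 CPM per kb in R193H hearts and 14.9 ± 1.09 in wild type hearts. Atp2b1 had 10.7 ± 0.728 CPM per kb in R193H hearts and 11.1 ± 0.363 in wild type hearts. Its highest heart, at 11.5, lay just below the lowest Cacna1c heart, at 11.7. Atp2b4 and Cacna1g, with overlapping hearts, averaged 3.26 and 2.90 CPM per kb over all 6. Below them came Itpr2, Cacna1h and Cacna1d, with overlaps between neighbours, and Cacnb2 was last. The order was the same with the union of all annotated exons as the length, but the spacing changed. Slc8a1 and Cacna2d1 then averaged 23.6 and 13.8 CPM per kb over all 6 hearts, against 24.0 and 23.1 with the longest transcript.

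**Figure D4:**
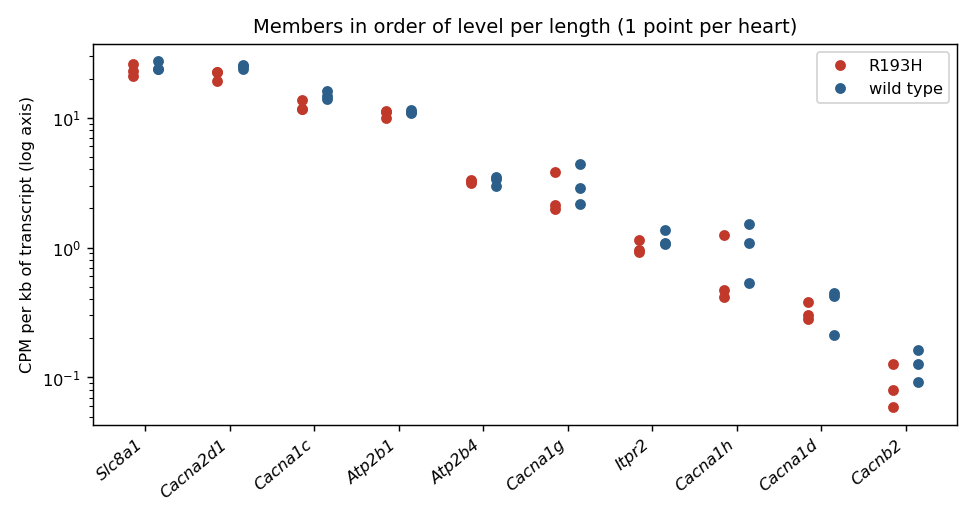
Members in order of level (CPM per kb of the longest coding transcript, log axis), with 1 point per heart, R193H in red to the left of wild type in blue. Slc8a1 and Cacna2d1 stand highest, and Cacnb2 lies lowest, at 0.0590 to 0.162 CPM per kb.

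Among the 4 pore genes, the T-type genes took 17.5%, 26.6% and 17.1% of the summed CPM per kb in R193H hearts, against 21.5%, 26.3% and 15.5% in wild type hearts. Means were 20.4% ± 5.416 in R193H hearts and 21.1% ± 5.402 in wild type hearts (SD, n = 3 each; exact permutation test, two-sided, p = 1). Of 8 count ratios between members, none had groups apart, and the smallest exact p was 0.2, for Cacna1g over Cacna1h (0.9 adjusted over the 8 ratios). That ratio was 5.197, 3.13 and 4.33 in R193H hearts, against 2.74, 2.92 and 4.15 in wild type hearts. Slc8a1 had 3.09, 2.36 and 2.51 counts per Cacna1c count in R193H hearts, against 2.71, 2.06 and 2.27 in wild type hearts (log2 difference 0.17, exact permutation p = 0.4). Atp2b4 had 0.470, 0.553 and 0.475 counts per Atp2b1 count in R193H hearts, against 0.530, 0.446 and 0.485 in wild type hearts (log2 difference 0.037, exact permutation p = 0.7). The 4 ratios not yet given had exact permutation p from 0.5 to 0.9.

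The genes closest to Cacna1c over the 6 hearts, by root mean square difference of log2 CPM centred on each gene's mean, were Fam131a (0.033), Aldh7a1 (0.037) and Desi2 (0.049), where Cacna1c itself varied by 0.17. Those closest to Slc8a1, which varied by 0.12, were Mrs2 (0.031), Pde1a (0.040) and Bbx (0.043). The candidates were 7610 genes. For Cacna1h, examined after its values were seen, Cacna1g was the second closest, with a difference of 0.33 against a variation of 0.73 of Cacna1h itself. The reverse did not hold. The 3 genes closest to Cacna1g, examined likewise, were Adrbk2 (0.076), Efnb3 (0.12) and Ctsh (0.13), and Cacna1h was not among them.

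Genes around the members gave a mixed picture, and in edgeR none of the 7 related lists had a gene past the adjusted threshold. Of 21 other voltage-gated channel genes, 9 passed the filter, with 6 higher and 3 lower means in R193H hearts and a median log2 fold change of 0.039. The first by p was Cacnb1, at 6.10 ± 0.491 CPM in R193H hearts and 7.48 ± 1.52 CPM in wild type hearts (SD, n = 3 each), a log2 fold change of -0.29 (SE 0.18). Among 15 regulators of the L-type channel, 12 were tested, with 8 higher and 4 lower (median 0.035). Ahnak, a large scaffold that binds the beta subunit, stood at -0.15 (SE 0.085).

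Of 13 other exchanger and pump genes, 8 were tested, with 1 higher and 7 lower (median -0.067). Slc24a5, a potassium-dependent sodium-calcium exchanger of internal membranes, was the 1 higher, at 1.22 ± 0.307 CPM in R193H hearts and 0.434 ± 0.0149 CPM in wild type hearts (log2 fold change 1.47, SE 0.38, edgeR adjusted p = 0.701). Bsg, a partner of the plasma membrane pumps, stood at -0.15 (SE 0.096). Of 17 other IP3 receptor genes and regulators in the count table, 15 were tested, with 3 higher and 12 lower (median -0.082). The first by p were Mrvi1 at -0.17 (SE 0.092) and Ahcyl1 at -0.12 (SE 0.075). On library totals Ahcyl1 turned to 0.0068. The medians of both lists turned as well, to 0.065 for the other exchangers and pumps and 0.049 for the IP3 genes. The median over all genes tested was then 0.13.

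The sodium gradient, which drives the exchanger, is set by the sodium pump. Of 11 genes listed for it, 9 were tested, with 5 higher and 4 lower (median 0.023). The small pump regulators Fxyd5 and Fxyd6 stood at 0.49 (SE 0.14, edgeR adjusted p = 0.722) and 0.32 (SE 0.14, edgeR adjusted p = 0.863), with all R193H hearts above all wild type hearts, as for 6.02% of all genes tested.

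Of 16 store-operated and TRP channel genes, 14 were tested, with 8 higher and 6 lower (median 0.060), among them Trpm7 at -0.14 (SE 0.089) and Stim1, the store calcium sensor, at 0.24 (SE 0.18). All 13 genes of the transverse tubule and dyad, where L-type channels face the release channels, were tested, with 7 higher and 6 lower (median 0.0041). Speg, a kinase of the dyad, stood at -0.21 (SE 0.083), and the release channel Ryr2 at -0.20 (SE 0.098). Tcap, which links the Z-disc to the tubule, stood at 0.46 (SE 0.19), and the anchor Ank2 at -0.14 (SE 0.077). None of these 4 passed the edgeR threshold, with adjusted p from 0.816 to 0.892.

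**Figure D5:**
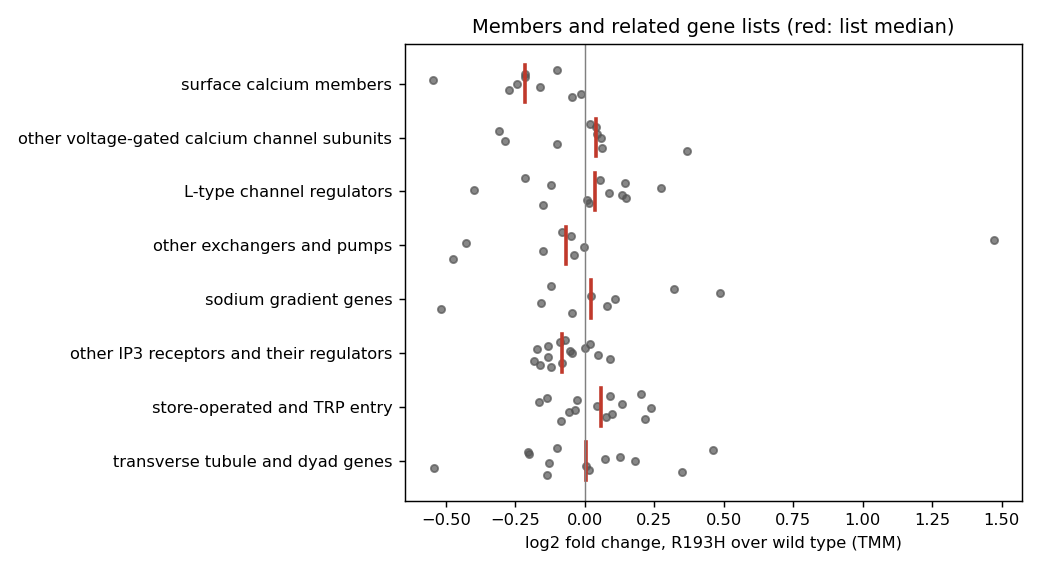
Log2 fold change, R193H over wild type, of each gene tested in the members and 7 related lists, with the median of each list in red. Under TMM scaling, the members have a median of -0.21, and the medians of the 7 related lists lie between -0.082 and 0.060.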

How the data were processed

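Total RNA of heart tissue was extracted with Trizol, per the labels' protocols. The values the authors deposited are raw read counts, in whole numbers, for 44792 gene symbols in 6 hearts. Alignment used HISAT2 2.0.4 and GRCm38, per the submitters' processing notes. The counting program and its handling of strand and of shared reads are not given, so overlapping and related genes have uncertain counts. Columns were matched to hearts by sample title. Replicate numbers follow accession order and pair nothing.

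From the counts, edgeR 4.0.16 in R 4.3.3 kept 14370 of 44792 genes (filterByExpr), scaled by TMM and ran the robust quasi-likelihood test on all of them, with Benjamini-Hochberg adjustment and a threshold of 0.05. Alternatives were DESeq2 1.42.0, limma-voom (limma 3.58.1), other scalings and filters, and each heart left out. The script was tested on simulated data. CPM use TMM-scaled totals. Transcript lengths and positions came from GENCODE on GRCm38. With 3 hearts a group, no permutation gives p under 0.1. Libraries of 14736067 to 21852210 counts set the depth. The members and lists were chosen with earlier results of these data known. Named genes were all members, up to 4 of each related list by smallest p, up to 2 of each marker list by level and the 3 nearest genes of Cacna1c and Slc8a1; the text marks others as named after their values were seen. Some genes that this rule names in the related lists are not reported here.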

Additional observations from a re-analysis of the deposited data

How the results depend on the processing

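The number of members past the threshold was 0 under every alternative run (other scalings, filters and tests, and each heart left out). Over all genes, edgeR called 1 gene, DESeq2 40, edgeR without a filter 38, edgeR without mitochondrial genes 0 (the 1 gene called is among those left out), and 3 to 21 with 1 heart left out. Of 135 alternative fold changes of the 9 members tested, 126 kept their direction. On library totals the sign turned for Slc8a1 (0.028), Atp2b1 (0.077), Atp2b4 (0.11) and Ahcyl1 (0.0068). It also turned for the median of the other exchangers and pumps (0.065) and of the IP3 receptor genes and regulators (0.049). With 1 heart left out, log2 fold changes ranged from -0.44 to 0.018 for Cacna1d, from -0.61 to 0.068 for Cacna1g, from -0.077 to 0.0094 for Atp2b1 and from -0.079 to 0.026 for Atp2b4. The log2 differences of ratios then ranged from -0.023 to 0.21 for Cacna2d1 over Cacna1c, from -0.17 to 0.40 for Cacna1d over Cacna1c, from -0.057 to 0.11 for Atp2b1 over Slc8a1, from -0.039 to 0.0995 for Atp2b4 over Atp2b1 and from -0.069 to 0.22 for Itpr2 over Cacna1c. The cause was not tested. No paired analysis was possible because the labels give no number that the groups share. The union of exons as gene length was added after seeing the data. Depth limits Cacnb2, with 5 to 11 counts a heart.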
